A study of Mus musculus with 9 samples.

Results

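The 10 genes described here encode the classical MHC class I molecule and the machinery that supplies it with peptides: H2-D1, H2-K1, B2m, Tap1, Tap2, Tapbp, Erap1, Psmb8, Psmb9 and Psmb10. They were chosen by gene symbol, and all 10 were found among the 11931 genes of the deposited table of normalised counts. The table came from 3′ end mRNA sequencing, which counts reads near the end of each transcript, of normal mammary fibroblasts (NMF), the connective tissue cells of the mammary gland. The fibroblasts came from the mammary fat pads of female BALB/c mice aged 12 weeks and recovered for 1 week on collagen before the experiment. In the first group they grew for 5 days under 4T1-GFP cells, a BALB/c mammary carcinoma line that carries a green fluorescent protein. In the second group the co-culture lasted 3 days, and in the third group the fibroblasts grew alone for 5 days. All 3 groups were sorted as GFP-negative, podoplanin (PDPN)-positive cells and hold 3 libraries each, numbered as repetitions. Nothing in the labels says that repetitions came from separate animals or cultures, so p-values measure the spread between these libraries, which may be technical.

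MHC class I molecules sit on the surface of nearly all nucleated cells and show peptides of cytosolic proteins to CD8 T cells and to natural killer cells. A heavy chain, here H2-D1 or H2-K1, pairs with beta-2-microglobulin, the product of B2m. The proteasome cuts proteins into peptides, the TAP transporter (Tap1 and Tap2) carries them into the endoplasmic reticulum, the peptidase Erap1 trims them there, and tapasin (Tapbp) holds the heavy chain to the transporter while it is loaded. Psmb8, Psmb9 and Psmb10 are the inducible catalytic subunits that turn the standard proteasome into the immunoproteasome, and interferons are the classical inducers of most of these genes.

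The libraries held between 1048471 and 3567326 recovered reads. Of 12 fibroblast markers all 12 had values, with summed levels of 39564 to 53754 in co-culture for 5 days, 44399 to 55637 in co-culture for 3 days and 46227 to 63829 in monoculture. Most of these sums comes from Col1a1 and Col1a2. Of the 12, 6 fell and 1 rose at 5 days against monoculture (Pdgfra, S100a4, Col3a1, Thy1, Dcn and Pdgfrb lower, Vim higher), and 5 fell and 0 rose at 3 days. Of all tested genes, 11.4% fell and 12.6% rose at 5 days, and 9.37% fell and 10.6% rose at 3 days. Pdgfra had a log2 fold change of -3.08 at 5 days (limma adjusted p = 2.63e-07). Epithelial and carcinoma markers moved with the groups: of 21 listed, 16 had values, and their sum was 1108 to 1544 in co-culture for 5 days, 1128 to 1284 in co-culture for 3 days and 56.1 to 84.0 in monoculture, where Cldn3 and Elf3 were at 0 in every library. Of the 14 of them tested, 13 rose in each co-culture against monoculture, several of them entering the test only through co-culture libraries. The 3 basal and myoepithelial markers with values summed to 39.6 to 49.9 in co-culture for 5 days, 44.6 to 66.4 in co-culture for 3 days and at most 11 in monoculture, and both tested ones, Krt14 and Sfn, rose at both times. Neither could have entered the test without co-culture libraries, so their rise is a description. Monoculture values were 0.0, 3.4 and 1.9 for Krt14 and 0.6, 6.2 and 1.9 for Sfn. Of the pericyte markers, Cspg4 alone rose (mean 109 in co-culture for 5 days, 77.9 in co-culture for 3 days and 10.2 in monoculture), and Mcam did not pass the test. The part of these markers in the results below was not tested. Ptprc, the pan-leukocyte marker, and 8 T, NK and B cell markers were not analysed here. The 4 leukocyte markers with values (Laptm5, Lcp1, Cd52 and Coro1a) summed to 13.6 to 23.3 in co-culture for 5 days, 1.7 to 36.2 in co-culture for 3 days and 5.1 to 26.9 in monoculture, with overlap. The 6 macrophage markers with values summed to 67.3 to 150.0 in co-culture for 5 days, 123 to 352 in co-culture for 3 days and 96.5 to 266 in monoculture, with overlap between all groups. Of the 5 tested, 1 was lower at 5 days against monoculture and 1 against 3 days, where 6.91% of all tested genes passed. Csf1r, named here after its values were seen, had 6.3, 9.3 and 3.7 in co-culture for 5 days. It had 14.9, 17.4 and 25.0 in co-culture for 3 days, and 17.9, 17.3 and 16.1 in monoculture, so its 5-day libraries lay below all others. In bulk libraries, fewer cells of a type and less RNA per cell cannot be told apart.

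Most of the pathway was higher in fibroblasts that had grown with carcinoma cells. After 5 days of co-culture 6 of the 10 genes rose against monoculture (H2-D1, H2-K1, B2m, Tapbp, Psmb8 and Psmb10) and 0 fell, where 12.6% of all 10639 tested genes rose and 11.4% fell. After 3 days of co-culture 6 rose (H2-D1, H2-K1, B2m, Tap1, Tapbp and Psmb8) and 0 fell, where 10.6% of all tested genes rose and 9.37% fell. The median log2 fold change of the 10 genes was 0.69 at 5 days, with -0.008 over all tested genes, and 0.95 at 3 days, with 0.001 over all tested genes. A gene was called when its two-sided limma test, run on log2(value + 1) over all tested genes, had a Benjamini-Hochberg adjusted p under 0.05, and fold changes on that scale understate the change of low genes. Both comparisons share the 3 monoculture libraries. For the 3-day co-culture, days in culture and the presence of carcinoma cells differ together and cannot be told apart.

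**Figure D1:**
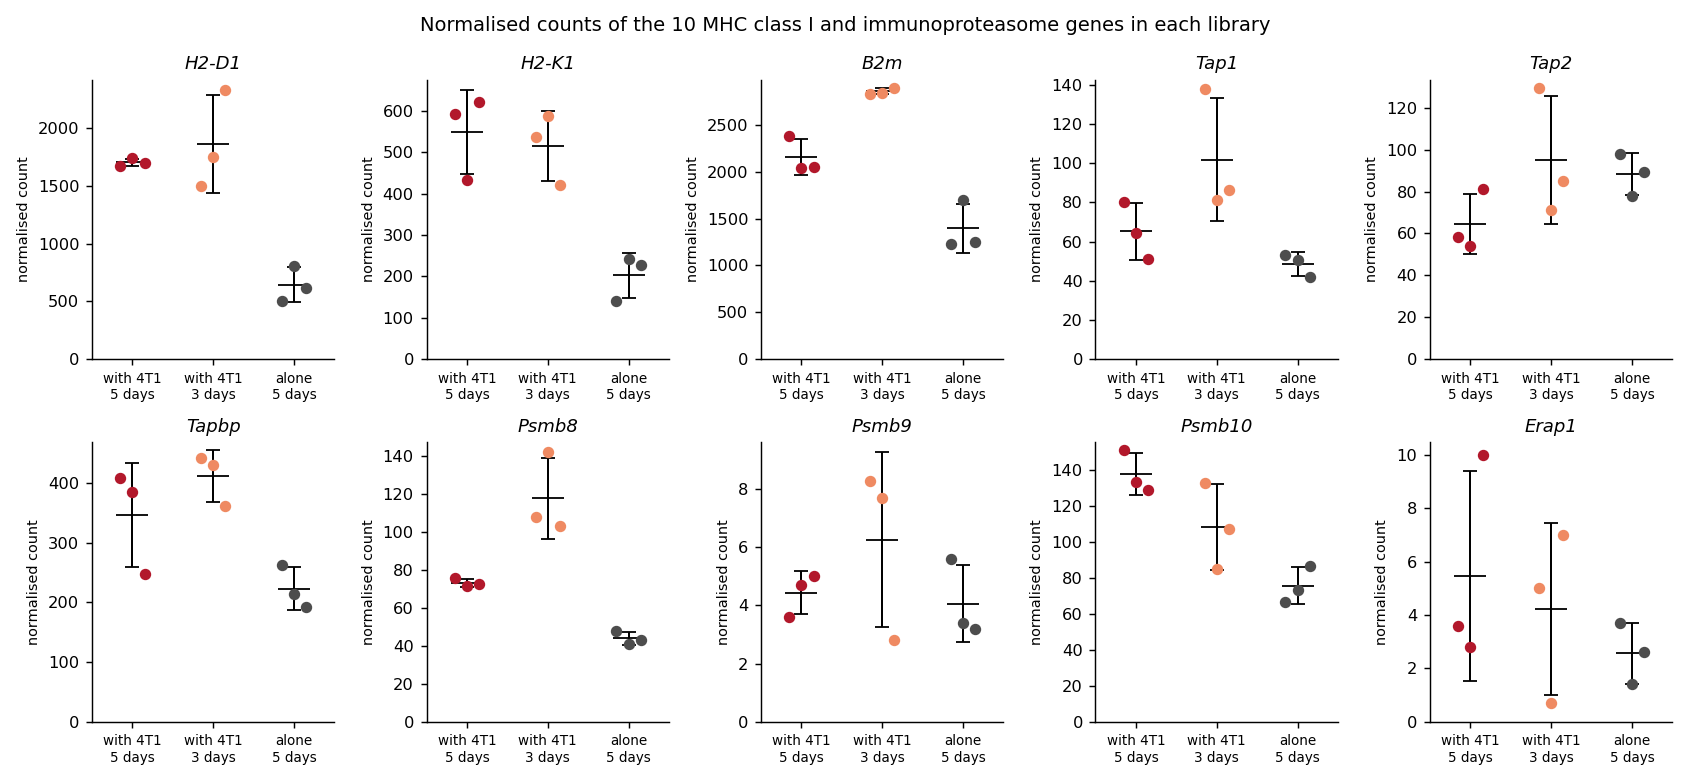
Normalised counts (y axis, linear, from 0) of the 10 genes in each library, for co-culture for 5 days, co-culture for 3 days and monoculture for 5 days; points are libraries, and black bars are the mean ± SD (n = 3). H2-D1 lay between 1499.5 and 2328 in the 6 co-culture libraries and between 504 and 806 in monoculture, whereas Tap2 overlapped between all groups.

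Both class I heavy chains rose at both times. H2-D1, on the plus strand at chr17:35262730-35267499 (mm10, GENCODE M21), had normalised counts of 1673, 1739 and 1699 in co-culture for 5 days, 1499.5, 1754 and 2328 in co-culture for 3 days, and 504, 806 and 620 in monoculture. Every co-culture library lay above every monoculture library, and the 3-day libraries spanned the 5-day ones. The means were 1704 ± 33.2 at 5 days, 1860 ± 424 at 3 days and 643 ± 153 in monoculture (SD, n = 3 each). H2-D1 was 2.65-fold higher by ratio of means at 5 days (log2 fold change 1.43 ± 0.20 SE, limma adjusted p = 7.85e-05) and 2.89-fold higher at 3 days (1.53 ± 0.20, adjusted p = 6.05e-05).

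H2-K1, on the minus strand at chr17:33996017-34000347, encodes the other classical heavy chain of the reference genome. It had normalised counts of 592, 433 and 622 in co-culture for 5 days, 538, 588 and 422 in co-culture for 3 days, and 139, 241 and 227 in monoculture. As for H2-D1, the co-culture libraries were all higher than the monoculture libraries and overlapped with each other. H2-K1 rose by 1.46 ± 0.22 on the log2 scale at 5 days (limma adjusted p = 0.000179) and by 1.37 ± 0.22 at 3 days (adjusted p = 0.00041). BALB/c mice carry other alleles of these genes than the reference genome and a further heavy chain, H2-L, so reads of one chain may have been counted for another or lost. In the reference transcripts, 43 of the 451 windows of 50 bases at the end of H2-D1 (9.5%) also occurred in other genes. These were 80 genes, and the one sharing most was Kcnk4 (4.9% of windows), not a class I chain. For H2-K1 the count was 2 windows, both of them in H2-D1, and for the other 8 genes it was 0.

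B2m (chr2:122147686-122153083, plus strand) encodes the light chain that every class I molecule needs to reach the surface. Normalised counts of B2m were 2377, 2043 and 2056 in co-culture for 5 days, 2836, 2843 and 2895 in co-culture for 3 days, and 1234, 1698 and 1251 in monoculture. The 3 groups did not overlap: the 3-day libraries were highest, the monoculture libraries lowest and the 5-day libraries between them. B2m rose by a log2 fold change of 0.64 ± 0.18 at 5 days (limma adjusted p = 0.0136) and of 1.05 ± 0.18 at 3 days (adjusted p = 0.000493). The 5-day call was lost without replicate 1 of the 5-day co-culture (adjusted p = 0.0577), without monoculture replicate 1 (0.0628) or without monoculture replicate 3 (0.0645), in a range over all alternatives of 0.00337 to 0.0645. Another gene, Patl2, is annotated across B2m on the opposite strand, and since the strand setting of the counting is not given in the sources used here, reads from both could not be told apart. Patl2 was not analysed here. The same limit holds for Psmb8, Psmb10, Tap2 and Tapbp, across which noncoding genes are annotated on the opposite strand, and Tapbp also overlaps Zbtb22 on its own strand by 3422 bases.

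The promoters of the chains that rose are shown with that of Psmb8, described further on, because they hold motifs known from the control of class I genes. Each is the 250 bases before the RefSeq start site (GRCm38.p6), on the gene's own strand, at chr17:35262844-35263093 (plus) for H2-D1, chr17:34000348-34000597 (minus) for H2-K1, chr2:122147437-122147686 (plus) for B2m and chr17:34197945-34198194 (plus) for Psmb8. Capitals mark the kappa B match and, after it, the interferon regulatory factor (IRF) core in H2-D1 and H2-K1, the interferon-stimulated response element (ISRE) and, after it, the kappa B match in B2m, and the gamma-activated site (GAS) in Psmb8.
H2-D1: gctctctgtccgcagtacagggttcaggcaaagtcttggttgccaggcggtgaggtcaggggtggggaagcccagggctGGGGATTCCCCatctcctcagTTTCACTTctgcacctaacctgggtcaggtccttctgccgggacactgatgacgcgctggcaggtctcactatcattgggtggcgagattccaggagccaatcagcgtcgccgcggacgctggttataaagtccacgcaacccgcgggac
H2-K1: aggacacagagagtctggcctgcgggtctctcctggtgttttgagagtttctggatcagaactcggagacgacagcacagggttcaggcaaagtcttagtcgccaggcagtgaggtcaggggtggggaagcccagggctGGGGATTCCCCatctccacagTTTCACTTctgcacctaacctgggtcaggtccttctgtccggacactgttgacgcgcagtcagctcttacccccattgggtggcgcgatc
B2m: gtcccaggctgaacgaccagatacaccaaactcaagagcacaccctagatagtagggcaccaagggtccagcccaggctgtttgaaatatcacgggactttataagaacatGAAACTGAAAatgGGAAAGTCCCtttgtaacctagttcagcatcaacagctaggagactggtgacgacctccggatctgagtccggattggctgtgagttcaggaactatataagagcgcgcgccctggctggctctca
Psmb8: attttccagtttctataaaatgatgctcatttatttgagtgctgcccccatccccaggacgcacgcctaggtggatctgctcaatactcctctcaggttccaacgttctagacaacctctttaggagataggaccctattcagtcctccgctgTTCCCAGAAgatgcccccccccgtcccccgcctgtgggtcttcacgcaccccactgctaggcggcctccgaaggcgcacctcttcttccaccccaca

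The motifs were searched on both strands over windows of 300 bases, from 250 before to 50 after the start site, in the 9 genes that have one in the RefSeq table (Tap2 was not matched). The IRF core AANNGAAA occurred in 4 of the 9 (H2-D1, H2-K1, B2m and Erap1), and in 23.9% of 32851 mouse promoters. The ISRE, here GAAA followed after any 2 bases by GAAA, contains the IRF core; it occurred in B2m and Erap1, and in 3.44% of promoters. The kappa B motif, GGGA, any base, T, any 2 bases and CC, occurred in H2-D1, H2-K1 and B2m, and in 4.16% of promoters. The GAS motif TTCNNNGAA occurred in Psmb8, and in 8.3% of promoters. H2-D1 and H2-K1 share the arrangement of kappa B and IRF core, within promoters that are identical at 211 of 239 aligned bases (88.3%). A match is a run of letters and not a measured binding site, and the sequences are those of the reference strain rather than of BALB/c.

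**Figure D2:**
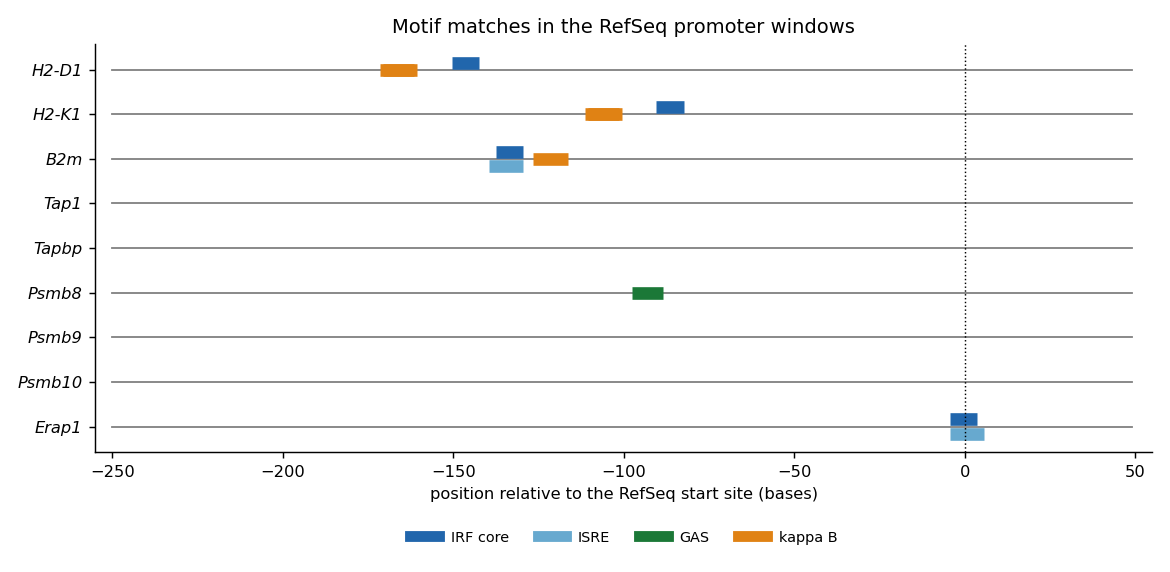
Motif matches (coloured blocks) along the RefSeq promoter windows of the 9 genes that have one; the x axis is the position in bases relative to the start site, marked by the dotted line at 0. The kappa B and IRF core matches of H2-D1 and H2-K1 lie in the same order, at -171 to -143 in H2-D1 and -111 to -83 in H2-K1, and Tap1, Tapbp, Psmb9 and Psmb10 hold no match in this window.

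Among the genes of peptide transport and loading, Tapbp rose at both times and Tap1 at 3 days, and Tap2 and Erap1 did not pass the test. Tap1 (chr17:34187553-34197225, plus strand), a subunit of the peptide pump, had normalised counts of 80.0, 64.3 and 51.2 in co-culture for 5 days, 138, 81.4 and 86.3 in co-culture for 3 days, and 53.2, 50.5 and 41.8 in monoculture. All 3-day libraries lay above all others, and the 5-day libraries overlapped with monoculture. Tap1 rose at 3 days by a log2 fold change of 1.02 ± 0.25 (limma adjusted p = 0.00773). Tap1 did not pass at 5 days, where the log2 fold change was 0.40 with a 95% interval of -0.12 to 0.93 (limma adjusted p = 0.267).

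Tap2 (chr17:34203527-34216321, plus strand), the partner of Tap1 in the pump, did not pass the test. It had normalised counts of 58.4, 54.0 and 81.1 in co-culture for 5 days, 129.5, 71.0 and 84.9 in co-culture for 3 days, and 97.8, 77.9 and 89.3 in monoculture. The 3 groups overlapped, and the highest value was that of 1 library at 3 days. Against monoculture Tap2 had a log2 fold change of -0.46 (95% interval -0.98 to 0.05) at 5 days, with a limma adjusted p of 0.19, and of 0.07 (-0.45 to 0.58) at 3 days, with an adjusted p of 0.881.

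Tapbp (chr17:33915899-33929292, plus strand) encodes tapasin, which bridges the empty heavy chain and the transporter. Normalised counts of Tapbp were 408, 385 and 247 in co-culture for 5 days, 442, 431 and 362 in co-culture for 3 days, and 263, 214 and 192 in monoculture. The 3-day libraries were all higher than monoculture, whereas the lowest 5-day library lay below the highest monoculture library. Tapbp rose by a log2 fold change of 0.61 ± 0.21 at 5 days (limma adjusted p = 0.0408) and of 0.89 ± 0.21 at 3 days (adjusted p = 0.00602). The 5-day call was lost in 7 of 19 alternatives, whose adjusted p ranged over all 19 from 0.00768 to 0.164: without replicate 1 (0.164) or 2 (0.147) of the 5-day co-culture, replicate 2 of the 3-day co-culture (0.0571), or replicate 2 (0.1) or 3 (0.153) of the monoculture, with quantile normalization (0.0542), and with only the compared groups in the fit (0.0519).

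Erap1 (chr13:74639568-74693201, plus strand), the aminopeptidase that trims peptides to class I length, had few reads. Its normalised counts were 3.6, 2.8 and 10.0 in co-culture for 5 days, 5.0, 0.7 and 7.0 in co-culture for 3 days, and 3.7, 1.4 and 2.6 in monoculture, from 1 to 8 reads per library. The groups overlapped, and the gene also overlaps Cast on the opposite strand by 834 bases. The log2 fold change was 0.75 at 5 days (95% interval -0.59 to 2.08) and 0.34 at 3 days (-0.999 to 1.67), with limma adjusted p of 0.433 and 0.756. Erap1 reached the filter only through co-culture libraries.

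Of the 3 inducible proteasome subunits, Psmb8 rose at both times, Psmb10 at 5 days, and Psmb9 did not pass; differences between subunits were not tested. Psmb8 (chr17:34197721-34201454, plus strand), also known as LMP7, takes the place of the constitutive subunit Psmb5. Psmb8 had normalised counts of 75.5, 71.7 and 72.4 in co-culture for 5 days, 108, 142 and 103 in co-culture for 3 days, and 47.7, 40.9 and 43.1 in monoculture. The groups did not overlap, with 3 days highest, monoculture lowest and 5 days between them. Psmb8 rose by a log2 fold change of 0.73 ± 0.20 at 5 days (limma adjusted p = 0.0153) and of 1.39 ± 0.20 at 3 days (adjusted p = 0.000148). Psmb8 no longer passed at 5 days when replicate 2 (adjusted p = 0.0568) or 3 (0.0503) of the monoculture was left out, in a range over all alternatives of 0.0131 to 0.0568.

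Psmb10 (chr8:105935735-105938444, minus strand), also known as MECL-1, takes the place of Psmb7, and it lies outside the MHC region of chromosome 17 that holds 7 of the 10 genes. Its normalised counts were 151, 133 and 129 in co-culture for 5 days, 133, 84.9 and 107 in co-culture for 3 days, and 66.8, 73.1 and 86.8 in monoculture. The 5-day libraries were all above monoculture, and 1 of the 3-day libraries lay below the highest monoculture library. Psmb10 rose at 5 days by a log2 fold change of 0.86 ± 0.21 (limma adjusted p = 0.00655). It did not pass at 3 days, where the log2 fold change was 0.50 with a 95% interval of 0.06 to 0.94 (limma adjusted p = 0.104).

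Psmb9 (chr17:34181987-34187764, minus strand), also known as LMP2, replaces Psmb6 and was hardly detected. Its normalised counts were 3.6, 4.7 and 5.0 in co-culture for 5 days, 8.3, 7.7 and 2.8 in co-culture for 3 days, and 5.6, 3.4 and 3.2 in monoculture, from 2 to 11 reads per library. Of its monoculture values only 5.6 reached 5, so Psmb9, like Erap1, could not have entered the test without co-culture libraries. All groups overlapped, with a log2 fold change of 0.12 (95% interval -0.89 to 1.13) at 5 days, limma adjusted p = 0.884, and of 0.44 (-0.56 to 1.45) at 3 days, adjusted p = 0.559. Psmb9 and Tap1 are transcribed away from each other from start sites 226 bases apart in RefSeq, and their promoter windows share 275 bases. Their annotated gene bodies overlap by 212 bases.

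**Figure D3:**
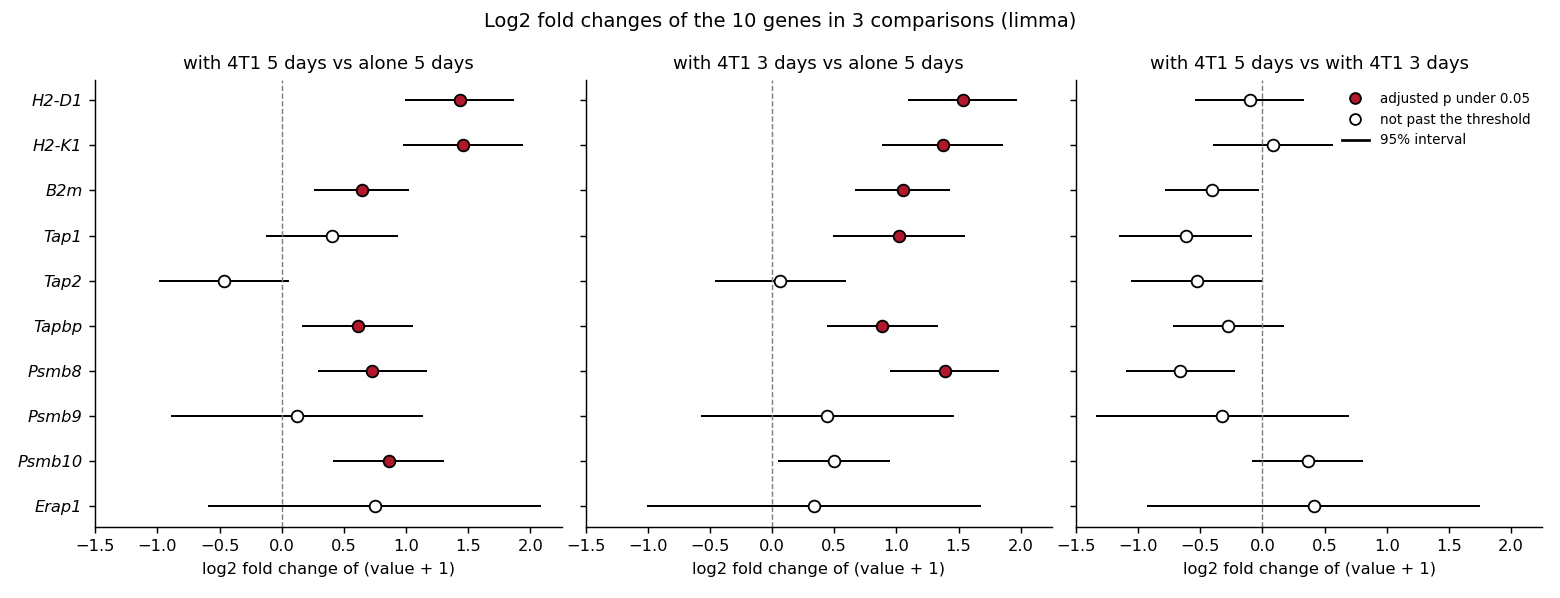
Log2 fold changes of (value + 1) from limma (x axis) for the 10 genes, with 95% intervals as lines, in co-culture for 5 days against monoculture, co-culture for 3 days against monoculture, and co-culture for 5 days against 3 days; filled points have an adjusted p under 0.05. In each comparison with monoculture 6 of 10 points are filled and lie to the right of 0, and between the co-cultures 0 are filled.

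The direct comparison of the co-cultures asked whether the genes differed between 5 and 3 days. By limma 0 of the 10 genes passed, as by edgeR and DESeq2 on recovered reads, where 6.91% of all tested genes passed by limma, 6.36% by edgeR and 7.77% by DESeq2. At an unadjusted limma p under 0.05, 4 of the 10 were lower at 5 days (B2m, Tap1, Tap2 and Psmb8) and 0 were higher, where 11.4% of all tested genes were lower and 10.9% higher. The median log2 fold change of the 10 genes was -0.30, against -0.005 over all tested genes. Psmb8 had the smallest adjusted p of the 10, with a log2 fold change of -0.66 (95% interval -1.09 to -0.23, limma adjusted p = 0.0599). B2m had -0.41 (-0.78 to -0.04, limma adjusted p = 0.182) and Tap1 had -0.62 (-1.14 to -0.09, adjusted p = 0.148). B2m, Tap1 and Psmb8 were the genes whose 5-day libraries all lay below the 3-day libraries. The share of all tested genes with such a separation was not analysed here, so this is a description. The heavy chains differed least, with log2 fold changes of -0.10 for H2-D1 (limma adjusted p = 0.817) and 0.09 for H2-K1 (adjusted p = 0.867), and their groups overlapped. These p-values do not show that levels were the same at both times.

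Each inducible subunit was also set against the constitutive subunit it replaces, as a ratio within the same library, which is a description with no test. Psmb8 over Psmb5 was 42.9%, 39.3% and 31.7% in co-culture for 5 days, 91.5%, 124% and 86.1% in co-culture for 3 days, and 41.4%, 36.2% and 38.5% in monoculture. The ratio was high in the 3-day libraries, while 5-day and monoculture libraries overlapped. Psmb5 itself had normalised counts of 176, 183 and 229 in co-culture for 5 days, 118, 115 and 120 in co-culture for 3 days, and 115, 113 and 112 in monoculture. The 5-day libraries alone stood apart, and Psmb5 rose in them by a log2 fold change of 0.77 ± 0.18 against monoculture (limma adjusted p = 0.00445) and of 0.72 ± 0.18 against 3 days (adjusted p = 0.0219). The 5-day against 3-day call was lost without replicate 3 of the 5-day co-culture (adjusted p = 0.0782) or replicate 2 of the 3-day co-culture (0.08), within 0.00822 to 0.08 over all alternatives. At 5 days both Psmb8 and Psmb5 rose against monoculture; at 3 days Psmb8 rose and Psmb5 had a log2 fold change of 0.05 (limma adjusted p = 0.87).

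Psmb10 over Psmb7 was 66.7%, 57.4% and 53.1% in co-culture for 5 days, 53.7%, 43.3% and 60.6% in co-culture for 3 days, and 42.8%, 35.8% and 47.7% in monoculture. The 5-day ratios were all above the monoculture ratios, and the 3-day ratios overlapped with both. Psmb9 over Psmb6 stayed between 0.447% and 1.08% in all 9 libraries, with overlap. Psmb6 and Psmb7 did not pass the test in any of the 3 comparisons. Reads per transcript can differ between genes, so the change of a ratio between groups is comparable and its size is not.

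**Figure D4:**
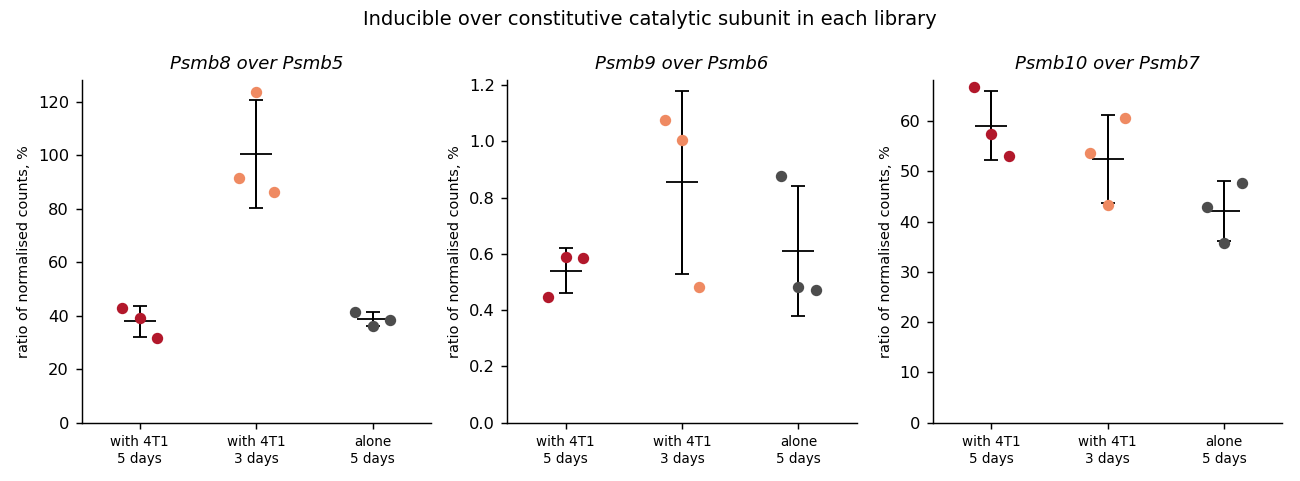
Ratio of the normalised counts of each inducible subunit to the constitutive subunit it replaces, in percent (y axis, linear, from 0), for co-culture for 5 days, co-culture for 3 days and monoculture for 5 days; points are libraries, and black bars are the mean ± SD (n = 3). Psmb8 over Psmb5 lay between 86.1% and 124% at 3 days, and below 43% in the other 6 libraries.

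The rest of the pathway did not move as a block. Of 23 listed nonclassical and further class I heavy chains 4 had values and 2 were tested. H2-T23 (Qa-1), which shows leader peptides of other class I chains to natural killer cell receptors, had normalised counts of 16.2, 10.2 and 23.7 in co-culture for 5 days, 84.7, 45.9 and 41.7 in co-culture for 3 days, and 55.1, 52.4 and 46.9 in monoculture. The 5-day libraries lay far below all others, the opposite direction to H2-D1 and H2-K1 in the same libraries. H2-T23 fell at 5 days by a log2 fold change of -1.64 ± 0.32 against monoculture (limma adjusted p = 0.00139) and of -1.72 against 3 days (adjusted p = 0.00425).

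H2-M3, which presents formylated peptides such as those of bacteria, had normalised counts of 37.7, 32.6 and 32.5 in co-culture for 5 days, 69.7, 71.7 and 58.4 in co-culture for 3 days, and 40.2, 64.4 and 48.2 in monoculture. Its 5-day libraries were the lowest. H2-M3 was lower at 5 than at 3 days (log2 fold change -0.94, limma adjusted p = 0.0247), a call lost without replicate 2 (0.0722) or 3 (0.0678) of the 5-day co-culture or without replicate 1 (0.0637) or 2 (0.0992) of the 3-day co-culture, within 0.0222 to 0.0992 over all alternatives. Against monoculture its log2 fold change was -0.54 at 5 days (limma adjusted p = 0.112) and 0.40 at 3 days (adjusted p = 0.25).

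Of the 4 tested class I-like chains that also pair with B2m, 2 fell and 0 rose at 5 days, and 0 passed at 3 days. Of all tested genes, 11.4% fell and 12.6% rose at 5 days, and 9.37% fell and 10.6% rose at 3 days. Fcgrt, the neonatal Fc receptor, had a mean of 165 ± 17.6 in co-culture for 5 days, 216 ± 9.93 in co-culture for 3 days and 271 ± 89.3 in monoculture (SD, n = 3 each), with a log2 fold change of -0.67 at 5 days (limma adjusted p = 0.0295). Without monoculture replicate 1, which stood at 373 against 205 and 235 in the other two, the log2 fold change was -0.42 (limma adjusted p = 0.174), and the call was also lost without replicate 1 (0.0513), 2 (0.0558) or 3 (0.102) of the 5-day co-culture, in a range of 0.014 to 0.174. Hfe, a regulator of iron uptake, had 3.6, 5.6 and 0.0 in co-culture for 5 days, 10.0, 11.8 and 11.1 in co-culture for 3 days, and 8.7, 15.9 and 5.8 in monoculture. Its call at 5 days (log2 fold change -1.73, limma adjusted p = 0.0438) was lost in 9 of 19 alternatives, among them edgeR (0.0523) and DESeq2 (0.0695), by each of which 1 of the 4 fell, pseudocount 0.5 (0.0521) and only the compared groups in the fit (0.0674), with -0.91 (adjusted p = 0.18) without replicate 3 of the 5-day co-culture, 0.0516 and 0.0611 without replicates 1 and 2 of the 3-day co-culture, and 0.0792 and 0.17 without replicates 1 and 2 of the monoculture, in a range of 0.018 to 0.18. Its 5-day libraries lay below all others.

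The 6 tested chaperones of peptide loading had 0 calls by limma in each of the 3 comparisons. Of all tested genes, 12.6% rose and 11.4% fell at 5 days, 10.6% rose and 9.37% fell at 3 days, and 6.91% passed between the co-cultures. At an unadjusted limma p under 0.05, 0 of the 6 chaperones differed from monoculture at either time. At that threshold 2 of the 6 were higher at 5 than at 3 days, where 10.9% of all tested genes were higher. Calr, which encodes calreticulin and had the highest level of them, had means of 4697 ± 885 in co-culture for 5 days, 3348 ± 165 in co-culture for 3 days and 3968 ± 395 in monoculture (SD, n = 3 each). Of the 6 tested cytosolic peptidases, which trim or destroy peptides before transport, 1 rose at 5 days and 0 at 3 days, where 12.6% and 10.6% of all tested genes rose. The peptidase that rose was Lap3, leucine aminopeptidase, with a log2 fold change of 0.56 (limma adjusted p = 0.0273). Its call was lost without replicate 2 (0.0775) or 3 (0.0781) of the 5-day co-culture or replicate 2 (0.107) or 3 (0.0805) of the monoculture, in a range of 0.0201 to 0.107.

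Of the 10 proteasome activators and assembly factors, 3 rose and 1 fell at 5 days, and 2 rose and 0 fell at 3 days, beside 12.6% higher and 11.4% lower of all tested genes at 5 days and 10.6% higher and 9.37% lower at 3 days. By edgeR and by DESeq2 on recovered reads, 3 rose at 3 days, where 1157 and 1080 of all tested genes rose. Psme2, a subunit of the interferon-inducible PA28 activator, had normalised counts of 436, 352 and 386 in co-culture for 5 days, 324, 399 and 419 in co-culture for 3 days, and 252, 259 and 232 in monoculture. All co-culture libraries were above all monoculture libraries, and Psme2 rose by a log2 fold change of 0.65 at 5 days (limma adjusted p = 0.0104) and 0.61 at 3 days (adjusted p = 0.0184). The 3-day call was lost without replicate 2 (0.0679) or 3 (0.0628) of the 3-day co-culture or without monoculture replicate 3 (0.0753), in a range of 0.00799 to 0.0753. Psme1, of the same list and named here after its values were seen, overlapped between all groups. Its means were 256.2 in co-culture for 5 days, 232.4 in co-culture for 3 days and 234.1 in monoculture.

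Psme4, the PA200 activator, rose by 1.25 at 5 days (limma adjusted p = 0.00386) and by 0.86 at 3 days (adjusted p = 0.041) on the log2 scale. Its 3-day libraries were uneven, at 66.4, 63.3 and 132, and without the third of them the log2 fold change was 0.52 (limma adjusted p = 0.187). Its 3-day call was also lost without replicates 2 (0.0515) or 3 (0.0544) of the 5-day co-culture, without replicates 1 (0.114) or 3 (0.133) of the monoculture, and with only the compared groups in the fit (0.0713), in a range of 0.0262 to 0.187. Psme3, the nuclear PA28 gamma activator, fell at 5 days by 0.84 (limma adjusted p = 0.00631). Pomp, a proteasome assembly factor named here after its values were seen, rose at 5 days by a log2 fold change of 0.64 (limma adjusted p = 0.0129), which no longer passed without replicate 2 of the 5-day co-culture (0.0602), without monoculture replicate 1 (0.0609) or with quantile normalization (0.053), in a range of 0.00353 to 0.0609.

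Of 16 tested regulators of class I transcription, 3 rose and 4 fell at 5 days, and 3 rose and 1 fell at 3 days, where 12.6% of all tested genes rose and 11.4% fell at 5 days and 10.6% rose and 9.37% fell at 3 days. Of those that rose, Nlrc5 entered the test only through co-culture libraries. Irf9 and Stat2 encode subunits of ISGF3, the factor that carries type I interferon signals to the ISRE. Irf9 had normalised counts of 141, 158 and 92.4 in co-culture for 5 days, 168, 134 and 154 in co-culture for 3 days, and 51.4, 52.9 and 39.2 in monoculture. Stat2 had 171, 168 and 177 in co-culture for 5 days, 151, 224 and 129 in co-culture for 3 days, and 82.3, 55.8 and 57.2 in monoculture. For both genes all 6 co-culture libraries were above all 3 monoculture libraries. Irf9 rose by a log2 fold change of 1.41 at 5 days (limma adjusted p = 0.000273) and 1.65 at 3 days (adjusted p = 8.49e-05), and Stat2 by 1.41 (adjusted p = 0.000249) and 1.34 (adjusted p = 0.000513).

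Nlrc5, the transactivator that works on class I promoters, was scarce, with normalised counts of 5.4, 5.6 and 5.0 in co-culture for 5 days, 5.0, 4.2 and 5.6 in co-culture for 3 days, and 1.9, 0.5 and 0.0 in monoculture. These come from 16 reads over the group in co-culture for 5 days, 13 in co-culture for 3 days and 4 in monoculture, and the gene passed the filter on low values only through co-culture libraries, so that it had to be higher there and its values are a description. Its fitted log2 fold change was 1.96 at 5 days (limma adjusted p = 0.012) and 1.86 at 3 days (adjusted p = 0.0193). These values also rest on few libraries: without monoculture replicate 3 the adjusted p was 0.061 at 5 days (range over alternatives 0.00802 to 0.061) and 0.0905 at 3 days (range 0.0126 to 0.0905), and the 3-day call was also lost without monoculture replicate 2 (0.0591), without replicate 3 of the 3-day co-culture (0.0532) and with DESeq2 (0.0542).

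The regulators that fell at 5 days were Irf1, Nfyb, Nfyc and Socs1, all named here after their values were seen. Irf1, an interferon-inducible activator of class I and of several genes above, had normalised counts of 35.0, 27.0 and 35.0 in co-culture for 5 days, 54.8, 38.3 and 39.0 in co-culture for 3 days, and 61.3, 47.6 and 65.6 in monoculture, with a log2 fold change of -0.82 at 5 days (limma adjusted p = 0.0215). The 5-day libraries were the lowest and did not overlap with the others. It no longer passed without replicate 2 of the 5-day co-culture (adjusted p = 0.088) or without replicate 1 (0.0685) or 3 (0.0938) of the monoculture, in a range of 0.0148 to 0.0938. Nfyb and Nfyc, subunits of the CCAAT-binding factor NF-Y, had log2 fold changes of -0.90 and -1.15 at 5 days (limma adjusted p = 0.0218 and 0.0323), and Nfyc also fell at 3 days by 1.72 (adjusted p = 0.0035). Socs1, an inhibitor of interferon signalling, had -0.98 at 5 days (limma adjusted p = 0.0316) and -0.92 at 3 days (adjusted p = 0.0501), and at 3 days it passed in 10 of 19 alternatives, with a range of 0.0372 to 0.171. At 5 days these 3 calls were each lost with several libraries left out. For Nfyb these were replicates 1 (0.0697) and 3 (0.0504) of the 5-day co-culture and replicates 1 (0.055), 2 (0.0754) and 3 (0.0637) of the monoculture. For Nfyc they were replicates 1 (0.089) and 2 (0.0969) of the 5-day co-culture and replicates 1 (0.0563), 2 (0.106) and 3 (0.0707) of the monoculture. For Socs1 they were replicates 1 (0.0679) and 2 (0.147) of the 5-day co-culture and replicates 1 (0.108) and 2 (0.103) of the monoculture.

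Of 10 listed class II genes 2 were tested, and 1 of these fell at each time, where 11.4% of all tested genes fell at 5 days and 9.37% at 3 days. H2-Ab1, named here after its values were seen, did not pass. Its means were 140.8 in co-culture for 5 days, 139.5 in co-culture for 3 days and 148.8 in monoculture, with overlap. Its log2 fold changes were -0.10 at 5 days (limma adjusted p = 0.783) and -0.09 at 3 days (limma adjusted p = 0.819). H2-DMa, which loads peptides onto class II molecules, had normalised counts of 38.6, 37.3 and 33.7 in co-culture for 5 days, 41.5, 25.8 and 26.4 in co-culture for 3 days, and 81.7, 78.8 and 110 in monoculture. All co-culture libraries lay below all monoculture libraries, and H2-DMa fell by a log2 fold change of -1.27 at 5 days (limma adjusted p = 0.00138) and -1.52 at 3 days (adjusted p = 0.000393). Of the tested ligands of T and natural killer cells, Cd274, which encodes the checkpoint ligand PD-L1, had 6.3, 9.3 and 12.5 in co-culture for 5 days, 8.3, 3.5 and 15.3 in co-culture for 3 days, and 1.9, 4.8 and 1.9 in monoculture. Cd274 reached the filter only through co-culture libraries, so its values are a description. All its 5-day libraries and 2 of its 3-day libraries were above monoculture. Its log2 fold change at 5 days was 1.46 (limma adjusted p = 0.0492, range over alternatives 0.0293 to 0.157), a call lost in 13 of 19 alternatives, among them both read-count tests and, with values of 0.0535 to 0.157, leaving out any 1 of the 5-day libraries, replicate 1 of the 3-day co-culture (0.0536) or replicate 1 (0.133) or 3 (0.144) of the monoculture.

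**Figure D5:**
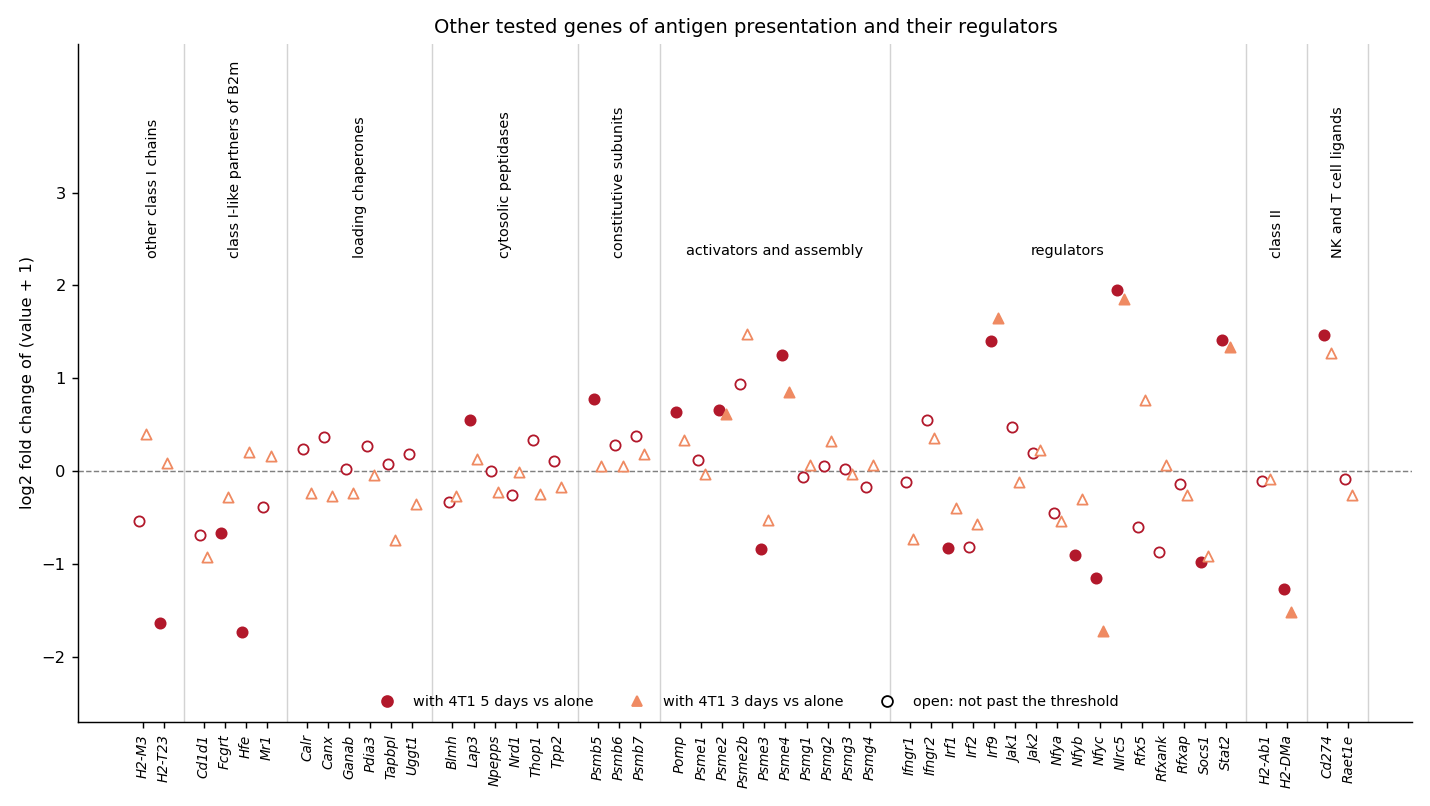
Log2 fold changes of (value + 1) against monoculture (y axis) for the other tested genes of antigen presentation, grouped by role; circles are co-culture for 5 days, triangles co-culture for 3 days, and filled symbols have a limma adjusted p under 0.05. Among filled symbols, Irf9, Stat2 and the scarce Nlrc5 stand above 1 at both times, and H2-T23, H2-DMa, Hfe and Nfyc below -1 at 5 days. The loading chaperones have 0 filled symbols.

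The genes whose pattern over the 9 libraries was nearest to that of H2-D1 were found by the root mean square difference of log2 values, each less its own monoculture mean, among 7361 tested genes with a mean of at least 20. They were Mpp6 (0.132), Epg5 (0.212) and Arntl (0.214), where the median of all candidates was 1.27. H2-K1 stood at 0.324, with 23 candidates nearer to H2-D1. Nearest to Psmb10 were Mak16 (0.107), Mkl1 (0.126) and Tns3 (0.14), against a candidate median of 0.7. Among the other genes of the 10, Tapbp was nearest to Psmb10 (0.396, with 775 candidates nearer) and Tap2 farthest (0.838, with 4726). Mpp6 averaged 77.9 in co-culture for 5 days, 76.3 in co-culture for 3 days and 27.3 in monoculture, and Mak16 averaged 188 in co-culture for 5 days, 150.0 in co-culture for 3 days and 102 in monoculture.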

How the data were processed

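The libraries were sequenced from the 3′ end of mRNA. Per the submitters' processing notes, bcl2fastq, STAR 2.4.2a, HTSeq and the mm10 build were used; how genes were annotated and filtered, whether strand was used, and how factors were set are not given in the sources used here. The authors deposited 1 table of normalised counts, a signal in which each library's counts are divided by its own factor and rounded. Low values were whole multiples of 1 read (0.481 to 1.66 units), and 99.99% to 100.0% of the values in a library came out whole within 0.051; molecular identifiers are not named in the sources used here, so reads may not be independent molecules. Columns were matched by name; the column used for the second 5-day co-culture does not name 4T1 cells, and the second monoculture has a column of its own.

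Genes with at least 5 in at least 3 of 9 libraries were tested (10639, leaving out 1292), with limma 3.58.1 in R 4.3.3 (trend) on log2(value + 1), 1 mean per group. All 10 genes passed, with Psmb9 and Erap1 reaching 5 in 4 and 3 libraries. Of 19 alternatives, 2 were edgeR 4.0.16 and DESeq2 1.42.0 on recovered reads, and the rest changed the pseudocount, filter, scaling, block or samples in the fit or left out 1 library. The procedure was tested on simulated data. Genes outside the 10 were named by rule: from each list the 3 called genes with the smallest adjusted p, or its highest gene where none was called, except where stated. The genes and lists were chosen with earlier results of these data known. Positions are from GENCODE M21, and promoters from RefSeq.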

Additional observations from a re-analysis of the deposited data

Results flagged for a closer look

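Of the genes of antigen presentation named by rule, 3 beside the 10 differed between the co-cultures by the direct limma test of 5 against 3 days, which 6.91% of all tested genes passed. H2-T23 was lower at 5 days by a log2 fold change of -1.724 (adjusted p = 0.00425), with all 3 of its 5-day libraries below all 3 of its 3-day libraries. H2-M3 was lower by -0.936 (limma adjusted p = 0.0247), and Psmb5 was higher by 0.722 (adjusted p = 0.0219), each with no overlap between the times. No monoculture of 3 days was analysed here, so the test compares 2 co-culture times and not the effect of co-culture at each.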

How the results depend on the processing

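Of 570 results of the 10 genes (10 genes, 3 comparisons, 19 alternatives), 549 kept their direction and side of the threshold, 12 lost a call, 0 gained one and 9 changed sign. The losses were those of B2m, Tapbp and Psmb8 at 5 days given above; H2-D1, H2-K1 and Psmb10 at 5 days and all 6 genes called at 3 days were called in all 19. The 10 genes had 3 to 6 calls at 5 days with 1 library left out (3 without monoculture replicate 3) and 5 or 6 otherwise. Calls over all genes between 5 and 3 days were 735, and 323 to 739 with 1 library left out: 442, 426 and 458 without replicates 1, 2 and 3 of the 5-day co-culture and 323 without replicate 2 of the 3-day co-culture, with fewer samples in each fit.

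The sign changes were all of results that did not pass. With quantile normalization, log2 fold changes between 5 and 3 days were -0.01 for H2-K1, -0.037 for Psme2 and 0.004 for Socs1. With 1 library left out, those of 3 days against monoculture ranged over -0.178 to 0.251 for Tap2, -0.106 to 1.011 for Erap1, -0.1 to 0.556 for Hfe, -0.013 to 0.19 for Psmb6 and -0.226 to 0.276 for H2-T23. Those of 5 against 3 days ranged over -0.246 to 0.071 for H2-D1, -0.053 to 0.247 for H2-K1, -0.263 to 0.854 for Erap1, -0.293 to 0.636 for Cd274, -0.099 to 0.295 for Stat2, -0.068 to 0.117 for Psme2 and -0.332 to 0.183 for Socs1. The cause of these changes was not tested.

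Whether the repetition numbers pair the libraries could not be settled from these values, and the main fit leaves out any pairing. Deviations of same-numbered libraries correlated at -0.114 to 0.233, with 4 of 9 pairs over 0.1, and those of other pairs at -0.298 to 0.323. Of 18 best matches, 8 had the same number. With the number as a replicate block the 10 genes had 6, 6 and 0 calls, Hfe gained a call between 5 and 3 days (-1.937, adjusted p = 0.0287), and all genes had 2663, 2219 and 827 calls against 2552, 2129 and 735. Depth limits Psmb9 and Erap1, with 1 to 11 reads per library.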
